A study of Mus musculus with 25 samples.

Results

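The genes examined encode the cues that steer growing axons and the receptors that read them. They were chosen by symbol alone from the autosomal protein-coding genes of the mouse build mm10 as the semaphorins (Sema), Slits, netrins (Ntn), ephrins (Efna and Efnb), Eph receptors (Epha and Ephb), plexins (Plxna to Plxnd), Robo and Unc5 receptors, the neuropilins Nrp1 and Nrp2, and Dcc. The rule took 66 of 20665 records, 34 for ligands and 32 for receptors.

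The study asked how silencing by Polycomb is remembered, with H3K27me3 as its main readout. This mark on histone H3 is written by PRC2, a Polycomb complex. Its 25 libraries fall into 13 groups. Neural progenitor cells (NPC) derived from mouse ES cells, wild-type and grown with EGF and FGF2, gave 6 H3K27me3 CUT&RUN libraries, 2 each untreated, under UNC1999 (2 uM) plus A395 (4 uM), which inhibit PRC2, and after washout of both. Lines A and B of mouse embryonic fibroblasts (MEF), immortalized with c-myc, gave 12 H3K27me3 ChIP-seq libraries. In line A, 2 each were wild-type, Ezh2 -/-, and Ezh2 -/- with retroviral pMSCV-Ezh2. In line B, 2 each were wild-type, Ezh2 -/- (reversible), and rescued at the endogenous Ezh2 gene. Ezh2 is the catalytic subunit of PRC2. The other 7 libraries (RNA polymerase II, H3K4me3, H3K36me3 and an input of line A, labelled Ezh2 -/-) were not used here.

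The data are 3 lists of H3K27me3 peaks, 1 for line A, 1 for line B and 1 for NPC, that give where each peak starts and ends and nothing of its height. The names of the MEF lists each join a pair of H3K27me3 labels, without stating a genotype or what each label served for. The NPC list names no treatment. No list is split by library, so the inhibitors, the washout, Ezh2 loss and its rescue cannot be compared, no value carries a replicate error, and no difference between lists was tested. Sequencing depth is unknown. The NPC list comes from CUT&RUN and the MEF lists from ChIP-seq, so cell type and assay cannot be told apart. A base outside every peak was not called, which does not show that it lacked the mark. Line A held 86235 peaks over 276.2 Mb, line B 81972 over 235.7 Mb and NPC 44807 over 136.9 Mb, all on the 19 autosomes. Where 3 values follow each other without a label, they stand in this order: line A, line B, NPC.

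In the growing nervous system, axons are repelled or attracted by these cues, which are secreted or displayed on cell surfaces. Slits repel through Robo receptors, netrins attract through Dcc and repel through Unc5 receptors, ephrins signal to Eph receptor tyrosine kinases between touching cells, and semaphorins act through plexins, the secreted ones often with a neuropilin. The same genes also work outside the nervous system, for example in blood vessels. H3K27me3 is known to spread over developmental genes that a cell type keeps silent, and a peak is no measure of expression.

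In the number of marker genes with a peak, the lists differed for neural progenitors and little for fibroblasts. Over all autosomal protein-coding records, 40.2% had a peak in line A, 40.9% in B and 31.9% in NPC. Of 8 neural progenitor markers, 6 had a peak in line A, 7 in B and 1 (Hes5) in NPC. Of 8 fibroblast markers, 1 had a peak in line A (Col1a1), 1 in B (Twist2) and 2 in NPC (Pdgfrb and Twist2). Markers of pluripotent cells had a peak at 1 of 3 genes in each list, markers of neurons at 3, 2 and 2 of 3 in line A, line B and NPC, and markers of endothelial cells at 2, 3 and 1 of 3.

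Most axon guidance genes had an H3K27me3 peak in at least 1 of the 3 lists, usually over a small part of the gene. A peak was counted where at least 1 bp lay within the gene record (from the first to the last base of the gene, introns included) or the 5 kb on each side of it, together called the window. Of the 66 genes, 58 (87.9%) had a peak in at least 1 list, where 55.2% of all autosomal protein-coding records did. In line A 39 genes had a peak (all records 40.2%, 8313 of 20665), in line B 44 (all records 40.9%) and in NPC 33 (all records 31.9%). Windows were at least 50% covered at 5 genes in line A (all records 9.98%), 5 in B (9.71%) and 2 in NPC (3.91%). In each list this was a smaller share of the 66 genes than of all records. Slit1, Robo3, Robo4, Unc5a and Epha10 passed that mark in line A, Slit1, Robo4, Unc5a, Plxnc1 and Sema5b in line B, and Slit1 and Epha8 in NPC. The median gene had 1.30% of its window covered in line A, 2.48% in B and 0.039% in NPC, against 0% for the median record of the genome in each list.

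A longer window has more room for a peak, and the part of gene length in these counts was not tested. The members' records had a median length of 64.9 kb (4.64 to 1555 kb), against 17.5 kb over all records. Among the 32 members of at least 100 kb, 30 had a peak in at least 1 list (all records of that length 73.9%), with 19 in line A (53.2%), 22 in B (57.1%) and 21 in NPC (48.6%). Among the 34 shorter members, 28 had a peak in at least 1 list (all shorter records 52.8%), with 20 in line A (38.6%), 22 in B (38.9%) and 12 in NPC (29.8%). A window can reach into a neighbouring gene, and leaving out bases inside other protein-coding records lowered the counts of members with a peak to 38 (line A) and 43 (line B) and left 33 in NPC. The gene that dropped out in both MEF lines was Sema3f, whose only peaks lay in the record of its neighbour Gnat1.

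**Figure D1:**
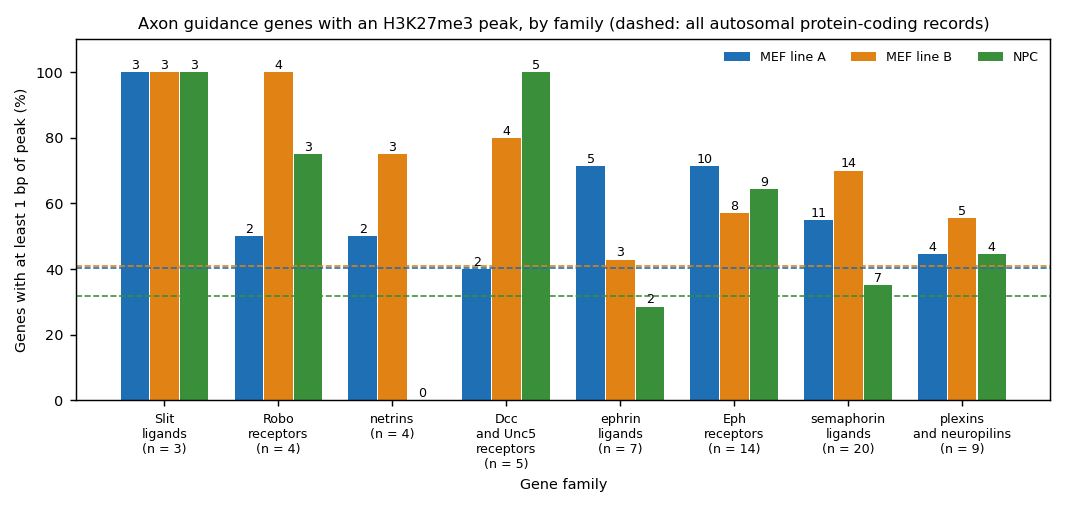
Bars give the percent of genes of each family with at least 1 bp of H3K27me3 peak in the gene record or the 5 kb on each side, in MEF line A (blue), MEF line B (orange) and NPC (green), with the number of genes above each bar and the family size in brackets. Dashed lines mark the percent over all autosomal protein-coding records (40.2, 40.9 and 31.9), and the 3 Slits had a peak in each list while the 4 netrins had none in NPC.

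In the Slit and Robo system, Slit1, Slit2, Slit3 and Robo3 had a peak in all 3 lists. Robo1 and Robo2 had peaks in line B and NPC, and Robo4 in both MEF lists. Slit1, a secreted repellent of the developing brain (chr19:41597824-41747275), was the most covered gene over the 3 lists. Peaks covered 76.9% of its window in line A (122.6 kb), 74.4% in line B (118.6 kb) and 92.1% in NPC (146.9 kb). In NPC this coverage came in 3 peaks, the widest of 79.2 kb (chr19:41607147-41686313), against 18 peaks in line A and 15 in line B. Slit2, the repellent that keeps axons out of the midline (chr5:47981291-48307735), had 0.664% of its window covered in line A, 1.30% in B and 21.0% in NPC. The MEF lists had peaks near the transcription start of Slit2, over 1207 bp of the 2 kb on each side in line A and 1472 bp in line B. The 70.7 kb of NPC peaks, 26 in number, covered 0 bp there, and the nearest lay 4.56 kb from the start. Slit3 (chr11:35121456-35708507) had 0.268% covered in line A, 10.8% in B and 14.0% in NPC, and its start window was covered in full in line B and NPC. Line A had 0 bp at the Slit3 start, and the nearest of its 3 narrow peaks lay 381.7 kb from it.

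Among the Robo receptors, the fibroblast lists held most of the peak length at Robo3 and Robo4, and NPC most of that at Robo1 and Robo2. Robo4, the receptor of the family known from blood vessels (chr9:37401902-37414023), was covered over 92.6% of its window in line A, 65.5% in B and 0% in NPC. Robo3, which lets commissural axons cross the midline (chr9:37416045-37433436), lies next to it and was covered over 63.8%, 46.7% and 1.83%. Their windows overlap, so the values are partly shared: the 1 peak at Robo4 in line A (chr9:37384926-37417381, 32.5 kb) and the 1 in line B (chr9:37375034-37411394, 36.4 kb) both reached into the Robo3 window. Each MEF list had 3 peaks in the Robo3 window, that one included, and covered the Robo3 start window in full. Outside the Robo4 record, 14500 bp of line A peak and 12445 bp of line B peak stood in the Robo3 window. Robo1 and Robo2, the Slit receptors of most axons, are very long genes, of 1020 and 1555 kb. Robo1 had 0 kb of peak in line A, 4.87 kb in B and 102.5 kb in NPC. Robo2 had 0 kb, 29.9 kb and 91.2 kb. The nearest line A peak lay 1402 kb from the Robo1 record and 402.2 kb from the Robo2 record. All 4 Robo genes thus had a peak in line B (all records 40.9%), 2 in line A (40.2%) and 3 in NPC (31.9%).

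The promoter of Robo4 is shown because it lay wholly inside a peak in both MEF lines and outside every NPC peak. Promoters are from RefSeq (GRCm38.p6, the assembly of mm10) and run from 250 bases before the transcription start to 50 after it. They are printed 5′ to 3′ on the strand of the gene, with CpG dinucleotides in capitals. The Robo4 promoter held 2 CpG in its 300 bases.
Robo4, chr9:37401722-37402021, plus strand: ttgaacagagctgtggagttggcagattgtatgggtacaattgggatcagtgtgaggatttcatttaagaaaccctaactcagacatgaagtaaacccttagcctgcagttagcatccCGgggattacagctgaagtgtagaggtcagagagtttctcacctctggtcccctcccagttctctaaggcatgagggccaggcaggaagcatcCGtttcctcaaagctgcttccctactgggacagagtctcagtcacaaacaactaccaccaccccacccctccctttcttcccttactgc

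**Figure D2:**
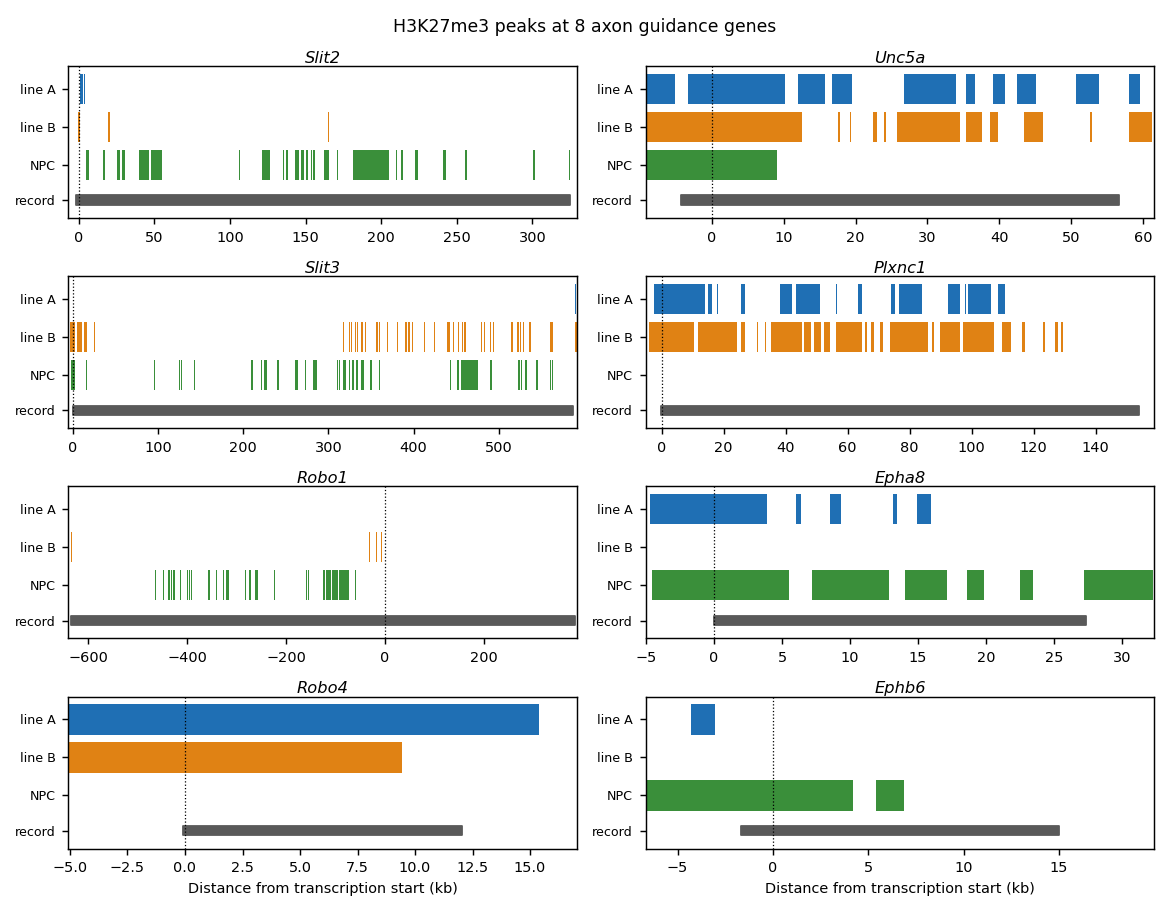
Peaks of line A (blue), line B (orange) and NPC (green) at 8 genes, with the gene record in grey, plotted by distance in kb from the transcription start (dotted line) in the direction of transcription, with a separate scale for each gene. Fibroblast peaks sit within 2 kb of the start of Slit2 and the NPC peaks do not, Robo4 and Plxnc1 hold fibroblast peaks alone, and NPC peaks cover the starts of Epha8 and Ephb6. The Robo1 start drawn is the only one in the promoter table and lies inside the record.

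In the netrin system, NPC had a peak at none of the 4 netrins and at all 5 receptors (all records 31.9%, and 48.6% for those of at least 100 kb). The receptors include the long genes Dcc, Unc5c and Unc5d, of 1098, 369.4 and 573.0 kb, and the netrins the short genes Ntn3 and Ntn5, of 5.56 and 10.5 kb, and the part of length in this was not tested. Line A had a peak at 2 netrins and 2 receptors (all records 40.2%, and 53.2% for those of at least 100 kb), counts near these shares. Line B had a peak at 3 netrins and 4 receptors (40.9% and 57.1%). Ntn1, the founding attractant of commissural axons (chr11:68209364-68386826), had 0% of its window covered in line A, 6.86% in B and 0% in NPC. Of the 4 line B peaks, the widest lay just outside the record (chr11:68387358-68403644, 16.3 kb), and the nearest line A peak stood 8.79 kb from the record. Ntn3 had a peak of 625 bp in line B alone. Ntn4, a basement membrane netrin, had 1.93 kb in line A alone. Ntn5 had 0.608 kb in line A and 0.839 kb in line B, both outside its record. Every netrin had less than 7% of its window covered in each list, with 6.86% the highest.

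As a percent of the window, Unc5a was the receptor of this system with the most coverage in each list. Unc5a (chr13:54945151-55006018) was covered over 59.3% of its window in line A, 58.6% in B and 25.8% in NPC, and all 4001 bases of its start window were in peaks in each list. In NPC 1 peak of 20.4 kb covered the first part of the gene (chr13:54938002-54958401), against 10 peaks in line A and 11 in line B. Unc5b had 0% in line A, 0.361% in B and 6.92% in NPC, the last a single peak over its start. Unc5c had 0.355%, 0% and 0.868%. Unc5d had 0%, 7.60% and 2.30%, and its 44.3 kb of peak in line B (41 peaks) was more than the 41.5 kb of Unc5a there. Dcc, the attractive netrin receptor, had 0 kb of peak in line A, 11.9 kb in B and 23.6 kb in NPC, in a window of 1108 kb. The nearest line A peak lay 675.0 kb from Unc5d and 81.7 kb from Dcc, but 5.75 kb from Unc5b, just outside its window. With 10 kb on each side, line A covered 4.78% at Unc5b and line B 0.978%. With 5 kb on each side, line A thus had no peak at 3 of the 5 receptors, all 3 of which had one in both other lists.
Unc5a, chr13:54949161-54949460, plus strand: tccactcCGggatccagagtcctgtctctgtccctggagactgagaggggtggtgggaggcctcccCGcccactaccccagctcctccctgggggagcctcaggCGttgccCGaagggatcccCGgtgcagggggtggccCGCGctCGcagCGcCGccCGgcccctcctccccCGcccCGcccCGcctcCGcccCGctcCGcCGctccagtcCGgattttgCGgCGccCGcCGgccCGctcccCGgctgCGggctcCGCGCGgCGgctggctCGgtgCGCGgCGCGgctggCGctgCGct
The Unc5a promoter is shown as one that lay wholly inside a peak in all 3 lists. It held 37 CpG and 78.3% G and C.

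Of the 7 ephrin ligand genes, 5 had a peak in line A (all records 40.2%), 3 in B (40.9%) and 2 in NPC (31.9%), and the counts in line B and NPC were near the shares of all records. Efna3, a membrane-anchored A-class ephrin (chr3:89313899-89322939), was the only ephrin with a peak in each list. Its window was covered over 19.7% in line A, 30.5% in B and 20.3% in NPC, and its start held peak in all 3. Efna2 (chr10:80179482-80190010) was covered over 17.2% and 35.6% in the MEF lines and 0% in NPC. Efna5, which helps to map retinal axons onto their target (chr17:62602957-62881317), had 33.5 kb of peak in line A, 0 kb in B and 10.5 kb in NPC. The 2 lists with peaks at Efna5 covered 3438 and 3775 bp of its start window. Efna4 had 2.40 kb in line A alone, in a flank. Efnb3, a midline barrier for corticospinal axons, was covered over 14.7% in line A and 9.79% in line B, also in a flank. Efna1 and Efnb2 had 0 bp in each list.

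Of the 14 Eph receptor genes, 10 had a peak in line A (all records 40.2%), 8 in B (40.9%) and 9 in NPC (31.9%), and Epha1 alone had none. NPC covered 2 of them far more widely than the MEF lines did. Epha8, an ephrin-A receptor (chr4:136929419-136956859), was covered over 29.9% of its window in line A, 0% in B and 70.0% in NPC. Its start window was covered in full in line A and NPC, and the nearest line B peak stood 103.9 kb from the record. Ephb6, a receptor without kinase activity (chr6:41603834-41620509), was covered over 4.72%, 0% and 46.2%. There the NPC peak was 23.3 kb wide and took in the whole start window (chr6:41586372-41609711), and the only line A peak lay upstream of the start. Epha7 had 9.26 kb in line A, 2.40 kb in B and 27.1 kb in NPC, and all 3 lists had peak at its start.

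The other Eph genes differed in which list covered them most. Epha10, also without kinase activity (chr4:124881530-124917801), was covered over 50.7% in line A, 37.4% in B and 26.3% in NPC. Epha4, a receptor for A- and B-class ephrins, had 2.41 kb, 9.02 kb and 1.97 kb. Ephb3 had 2.77 kb in line A, 2.36 kb in B and 0 kb in NPC, all upstream of its record. Ephb4, the venous receptor for Efnb2, had 2.55 kb at its start in line B alone. Epha6, the longest of the family at 969.5 kb, had 47.2 kb of peak in line A, 40.8 kb in B and 86.9 kb in NPC, and only NPC peaks covered its start window (4001 bp). Ephb1 had 29.2, 12.1 and 24.8 kb of peak, in each list at the start. Epha3 had peaks in line B and NPC, Epha2 and Ephb2 in line A alone, and Epha5 in NPC alone.

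Promoters of ephrin and Eph genes with no peak at the start are printed for comparison with those above. Efna1 and Efnb2 had 0 bp of peak in each window, and Epha5 held 1 NPC peak of 291 bp, 261.0 kb from its start. The 300 bases held 20 CpG at Efna1, 35 at Efnb2 and 30 at Epha5.
Efna1, chr3:89280902-89281201, minus strand: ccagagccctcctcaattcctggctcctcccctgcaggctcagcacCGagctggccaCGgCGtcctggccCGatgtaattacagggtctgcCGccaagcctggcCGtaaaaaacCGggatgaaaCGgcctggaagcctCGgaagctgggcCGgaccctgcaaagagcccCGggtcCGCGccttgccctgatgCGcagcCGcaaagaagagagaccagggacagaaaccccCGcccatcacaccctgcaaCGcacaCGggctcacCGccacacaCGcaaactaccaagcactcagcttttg
Efnb2, chr8:8661193-8661492, minus strand: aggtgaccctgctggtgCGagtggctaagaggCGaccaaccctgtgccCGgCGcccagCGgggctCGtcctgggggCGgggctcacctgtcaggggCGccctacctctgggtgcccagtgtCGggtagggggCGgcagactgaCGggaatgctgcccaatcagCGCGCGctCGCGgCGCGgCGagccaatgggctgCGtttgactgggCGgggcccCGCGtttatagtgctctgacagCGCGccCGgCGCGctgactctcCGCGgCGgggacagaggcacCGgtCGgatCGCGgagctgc
Epha5, chr5:84417333-84417632, minus strand: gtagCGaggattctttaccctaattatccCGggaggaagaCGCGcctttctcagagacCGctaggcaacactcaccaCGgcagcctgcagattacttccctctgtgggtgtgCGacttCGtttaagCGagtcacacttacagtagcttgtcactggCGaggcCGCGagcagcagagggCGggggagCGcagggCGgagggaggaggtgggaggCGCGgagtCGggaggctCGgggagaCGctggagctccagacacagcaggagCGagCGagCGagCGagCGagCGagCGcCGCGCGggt

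Semaphorin genes were marked at 11 of 20 members in line A (all records 40.2%), 14 in B (40.9%) and 7 in NPC (31.9%), the last near the share of all records. The highest covered shares lay in the fibroblast lists, the top one at the membrane-bound Sema5b. In line B the secreted Sema3g (47.0%) was close to the membrane-bound Sema6b (47.1%). Sema5b (chr16:35541154-35664261) was covered over 46.8% of its window in line A (62.3 kb), 60.2% in line B (80.2 kb) and 3.51% in NPC (4.67 kb), the last outside the record. A line A peak of 38.8 kb (chr16:35517068-35555848) and a line B peak of 30.4 kb (chr16:35525254-35555695) covered its start window in full, of which NPC peaks covered 1465 bp. Sema6b, a transmembrane ligand of A-class plexins (chr17:56123085-56140343), was covered over 41.1%, 47.1% and 17.3%, and its start held peak in each list. Most of this coverage lay in the flanks: the Sema6b record itself held 1614 bp of peak in line A, 3914 bp in B and 0 bp in NPC. With no flank, the covered share of Sema6b was 9.35%, 22.7% and 0%. Sema4f (chr6:82911884-82939769) was covered over 43.0% in line A, 0% in B and 20.1% in NPC. Sema4d, a ligand of Plxnb1 that is also known from immune cells, had 33.7 kb in line A, 4.87 kb in B and 1.56 kb in NPC. The MEF lists thus differed at Sema4f and Sema4d by 43.0 and 24.4 percentage points, line A the higher.

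Of the 7 secreted class 3 semaphorins, 3 had a peak in line A (all records 40.2%), 3 in B (40.9%) and 2 in NPC (31.9%). These counts were near the shares of all records. None of the 7 had a peak in all 3 lists (all records 19.5%). Sema3g (chr14:31217873-31230352) was the most covered, over 15.9% in line A, 47.0% in B and 0% in NPC. Sema3e, a repellent of neurons and vessels that binds Plxnd1 (chr5:14025276-14256689), was covered over 3.40% in NPC and 0% in both MEF lists. The NPC peaks there covered 2979 bp of the start window, with a widest peak of 4.60 kb (chr5:14024298-14028893). Sema3c had peak in line A alone, Sema3d in line B and NPC, and Sema3f in both MEF lists. Sema3a, the classic growth cone collapsing cue, and Sema3b had 0 bp in each list. Around Sema3a the nearest peak stood 668.5 kb away in line A, 397.0 kb in B and 35.1 kb in NPC.
Sema3e, chr5:14025026-14025325, plus strand: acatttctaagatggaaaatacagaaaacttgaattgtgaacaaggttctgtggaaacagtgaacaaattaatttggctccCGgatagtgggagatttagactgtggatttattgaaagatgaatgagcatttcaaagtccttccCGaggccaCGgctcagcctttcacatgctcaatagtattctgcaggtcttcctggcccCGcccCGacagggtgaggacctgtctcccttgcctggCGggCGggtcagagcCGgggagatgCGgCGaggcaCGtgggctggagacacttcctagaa
The Sema3e promoter is printed because it lay wholly inside an NPC peak and outside every MEF peak. It held 11 CpG.

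Sema7a and its receptor Plxnc1 stood on opposite sides of the comparison between NPC and fibroblasts. Sema7a, a GPI-anchored semaphorin (chr9:57939596-57962865), was covered over 7.08% in line A, 3.53% in B and 28.2% in NPC, where its start window was covered in full. Plxnc1 (chr10:94790866-94945015) was covered over 33.9% in line A (55.7 kb), 56.2% in line B (92.3 kb) and 0% in NPC, with its whole start window in peaks in both MEF lines. The nearest NPC peak lay 41.1 kb from the Plxnc1 record. The Plxnc1 promoter is printed as one inside MEF peaks alone. With 30 CpG it was CpG-rich, unlike that of Robo4, which had the same pattern.
Plxnc1, chr10:94944796-94945095, minus strand: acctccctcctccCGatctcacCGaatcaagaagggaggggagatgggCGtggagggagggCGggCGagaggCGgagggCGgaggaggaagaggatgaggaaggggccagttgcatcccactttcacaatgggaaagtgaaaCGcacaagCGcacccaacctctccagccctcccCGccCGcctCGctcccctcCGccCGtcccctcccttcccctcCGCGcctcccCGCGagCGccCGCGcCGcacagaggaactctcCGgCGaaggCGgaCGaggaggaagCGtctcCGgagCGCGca

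Of the 9 plexin and neuropilin genes, 4 had a peak in line A, 5 in B and 4 in NPC, beside 40.2%, 40.9% and 31.9% of all records. Plxna4, a co-receptor for secreted semaphorins (chr6:32144543-32588192), was the only 1 of them with a peak in each list. It was covered over 74.2 kb in line A (16.3%), 86.9 kb in line B (19.2%) and 177.9 kb in NPC (39.2%), the most peak length of any member in NPC. The widest NPC peak there spanned 70.5 kb inside the record (chr6:32358082-32428536), and the widest line B peak 71.6 kb across 1 end of it (chr6:32571454-32643097). Plxna1 had 0.796 kb, 0 kb and 10.1 kb of peak, and Nrp2, a co-receptor for Sema3f, 0 kb, 0.577 kb and 10.7 kb, so that NPC held most of the coverage at both. Plxna2 had 0.586 kb in line A alone and Plxnb2 0.465 kb in line B alone. Nrp1, the co-receptor for Sema3a and VEGF, and Plxnd1 had 0 bp in each list. The nearest line A peak lay 8.01 kb from the Nrp1 record, while at Plxnd1 the nearest peak of the 3 lists, in line B, lay 120.0 kb away.

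**Figure D3:**
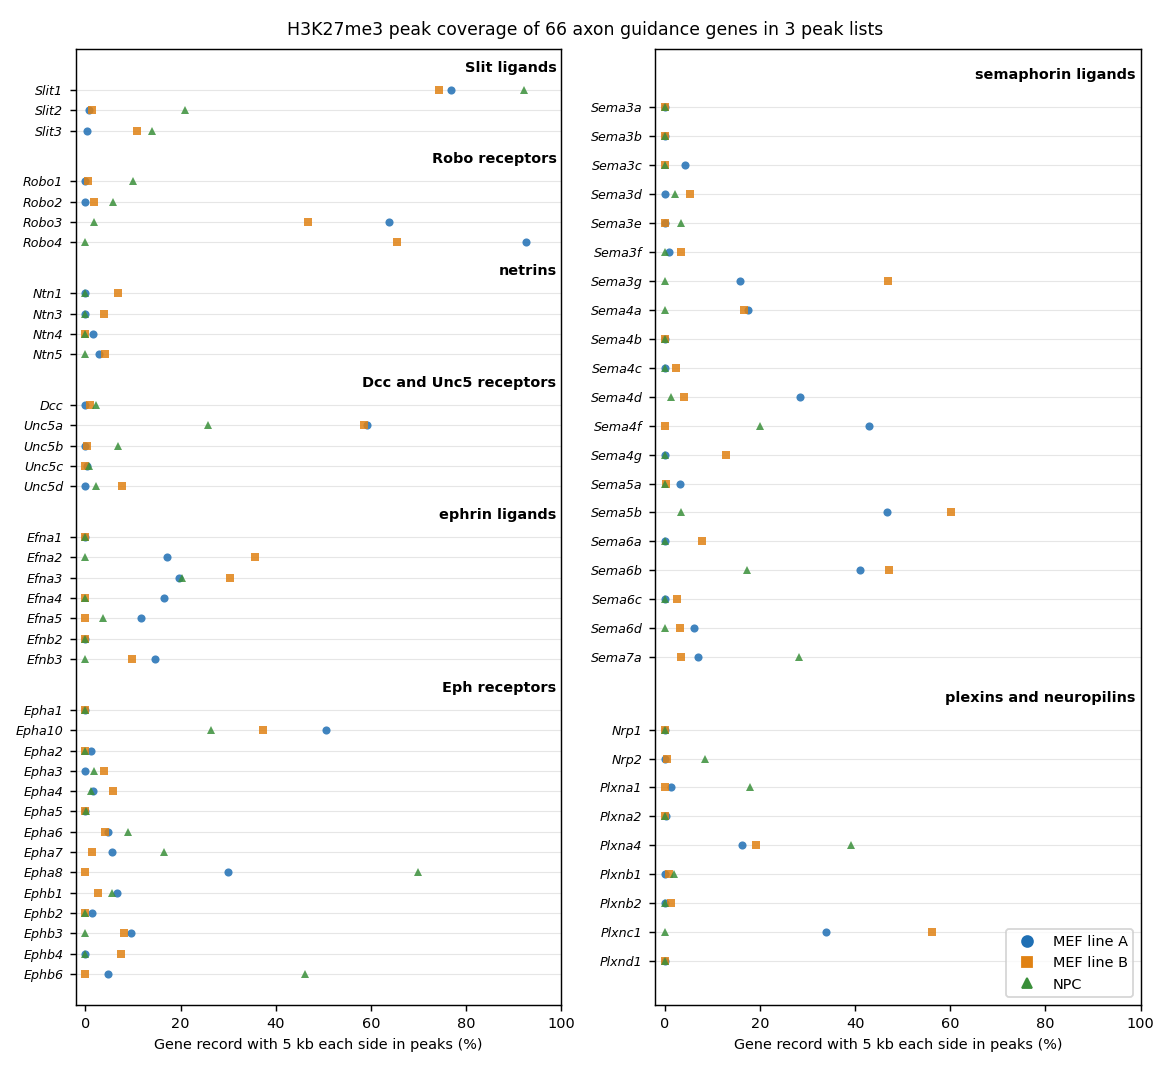
Percent of each gene window (the record with 5 kb on each side) in H3K27me3 peaks for all 66 genes, with MEF line A as blue circles, MEF line B as orange squares and NPC as green triangles, 1 value per list and no replicates. Slit1 lies between 74.4 and 92.1% in the 3 lists, Robo4 and Plxnc1 are at 0% in NPC alone, and Epha8 and Ephb6 are highest in NPC.

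Sorted by the lists in which they had a peak, the 66 genes spread over every pattern. A peak stood in all 3 lists at 16 genes (all records 19.5%), in both MEF lists and not in NPC at 11 (12.5%), in NPC and 1 MEF list at 15 (6.44%) and in NPC alone at 2 (5.97%). Line A alone had a peak at 6 genes (4.55%) and line B alone at 8 (6.28%). The 8 genes with no peak (all records 44.8%) were Efna1, Efnb2, Epha1, Nrp1, Plxnd1, Sema3a, Sema3b and Sema4b. The 15 genes in NPC and 1 MEF list, 22.7% of members, shared the NPC peak with line B at 9 (Dcc, Unc5b, Unc5d, Robo1, Robo2, Epha3, Nrp2, Plxnb1 and Sema3d) and with line A at 6 (Efna5, Epha8, Ephb6, Plxna1, Sema4f and Unc5c).

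The fibroblast lines differed from each other at many of these genes. Of the 56 genes with a peak in either MEF list, 29 (51.8%) had it in 1 line only, where 35.1% of all such records did. Several of the 29 rest on 1 narrow peak, such as 285 bp at Unc5b in line B and 455 bp at Epha2 in line A. The part of narrow peaks and of gene length in this share was not tested. The 27 genes shared by the lines were 69.2% of the line A genes and 61.4% of the line B genes, against 79.4% and 78.0% over all records. NPC shared 22 genes with line A (66.7% of the NPC genes, all records 72.8%) and 25 with line B (75.8%, all records 69.6%). Spearman's rho of the covered percent over the 66 windows was 0.47 between line A and line B, 0.33 between line A and NPC and 0.16 between line B and NPC. Over all 20665 windows it was 0.73, 0.51 and 0.45. Windows with no peak in any list, tied at 0% throughout, were 12.1% of members and 44.8% of all records. All these values are descriptions over genes that share the same windows and, at Robo3 and Robo4, the same peaks. Lists without the narrower peaks changed these patterns: with each list cut to its widest peaks so that all covered at most the 136.9 Mb of NPC, 8 genes had a peak in all 3 lists (all records 8.07%), 3 in both MEF lists alone (2.89%) and 16 in NPC alone (15.9%). The share in NPC alone was higher with the cut lists over all records too.

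**Figure D4:**
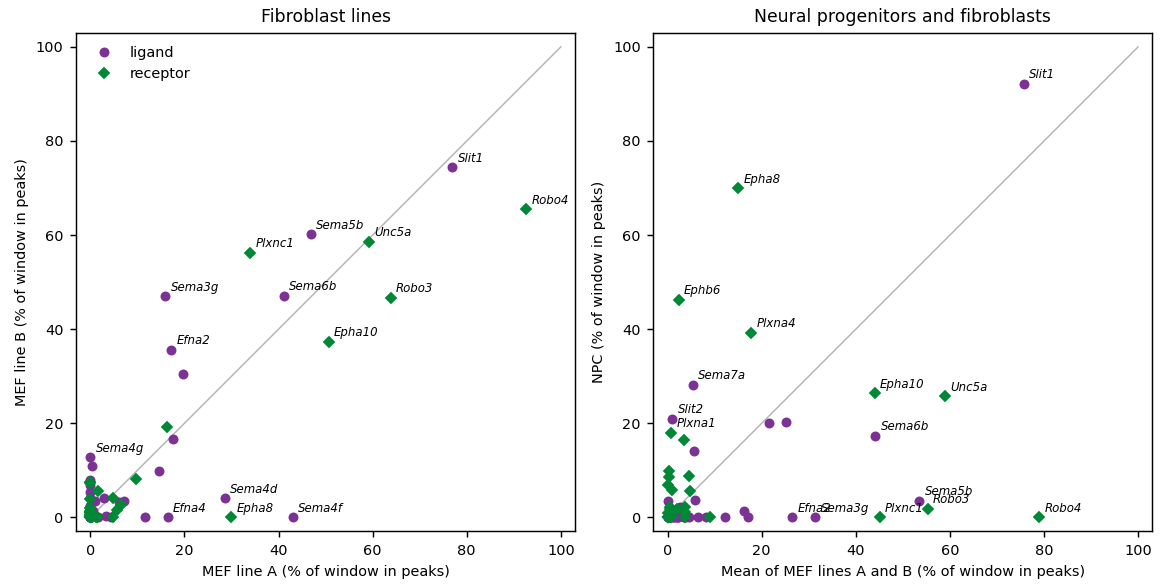
Each point is 1 of the 66 genes, ligands as purple circles and receptors as green diamonds, by percent of its window in peaks. Left, MEF line A against MEF line B, and right, the mean of the MEF lines against NPC, with the line of equal values in grey. Slit1 is high on all axes, Epha8 and Sema4f lie at 0% in line B, and Robo4 and Plxnc1 lie at 0% in NPC.

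Ligand and receptor genes were also counted apart, beside the 40.2%, 40.9% and 31.9% of all records. Among the 34 ligand genes, 21 had a peak in line A, 23 in B and 12 in NPC. Among the 32 receptor genes the counts were 18, 21 and 21. The median receptor window was covered over 0.774% in line A, 1.17% in B and 1.85% in NPC, and the median ligand window over 2.32%, 3.51% and 0%. In NPC the ligand count was near the share of all records and the receptor count above it. The receptors include the longest members, Robo2, Dcc and Robo1 (1555, 1098 and 1020 kb). Over all records, 48.6% of those of at least 100 kb and 29.8% of shorter ones had an NPC peak. The difference between ligands and receptors was not tested, nor was the part of gene length in it.

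At transcription starts, where the window does not grow with the gene, the share of members with a peak was again above that of all records. The RefSeq promoter table held 72 starts for 56 of the 66 genes and not those of Dcc, Efnb3, Ntn1, Plxna1, Plxna4, Sema3b, Sema3f, Sema6a, Slit1 and Unc5d. Within 2 kb of a start, 24 of the 56 had a peak in line A (all records with a start 23.9%), 28 in B (25.1%) and 21 in NPC (17.5%), and 41 (73.2%) had one in at least 1 list (36.3%). The start was marked in all 3 lists at 10 genes: Efna3, Epha4, Epha7, Epha10, Ephb1, Robo3, Sema5b, Sema6b, Sema7a and Unc5a. NPC alone marked the start of Epha6, Ephb6, Nrp2, Sema3e and Unc5b. The 2 kb around starts held 11.6% of the peak length of these windows in line A, 14.5% in B and 9.21% in NPC. A start window has 4001 bases and is a small part of most record windows. These shares were not set beside the share of bases at starts, so they do not show whether peaks favour or avoid starts. Among genes with a known start and a peak, 10 of 34 in line A, 8 of 36 in B and 7 of 28 in NPC had no peak at the start, Slit2 and Sema4f in NPC and Slit3 in line A among them. These counts were not set beside all records. The table does not list every start of a gene, as at Robo1, so a peak may lie at a start not counted here.

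Promoters of the members were rich in CpG, with or without a peak at the start. The promoters of the 56 members held a median of 23 CpG in 300 bases, against 14 over 16457 records. At least 10 CpG stood in 87.5% of the members' promoters and in 58.7% of all promoters. The 41 members with a peak at a start and the 15 without had the same median of 23 CpG, with ranges of 2 to 56 and 2 to 35. Over all records, promoters with a peak at the start had a median of 9 CpG and those without had 16.

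Other genes of the same pathway were counted in 2 chosen groups. The first held 31 further cues, receptors and adhesion molecules of axon guidance. Of these, 15 had a peak in line A (48.4%, all records 40.2%), 18 in B (58.1%, 40.9%) and 20 in NPC (64.5%, 31.9%). The part of gene length in these counts was not tested. Islr2, a membrane protein of sensory axons, Cntn2, an axonal adhesion molecule, and Shh, a midline attractant, were covered over at least 65.3% of their windows in each list. Of 45 intracellular effectors, which carry the signal to the cytoskeleton, 16 had a peak in line A (35.6%), 16 in B (35.6%) and 13 in NPC (28.9%), near the shares of all records. Among those of the actin machinery of most cells, Rhoa, Cfl1, Rock2 and Limk2 had 0 bp in each list, Cdc42 was covered over 3.46% in line A alone, and Rac1, Limk1 and Rock1 over 3.22%, 4.55% and 0.144% in line B alone. The effectors with wide coverage included Dpysl5 and Crmp1, of the collapsin response family, with 62.3%, 79.7% and 0.482% covered at Dpysl5 and 18.3%, 56.9% and 20.3% at Crmp1 (line A, line B, NPC).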

How the data were processed

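The authors deposited 3 BED lists of H3K27me3 peaks (chromosome, start and end, with no header, count or score), each for the series and not for a sample. Tools listed by the submitters' processing notes are MACS2 2.1.1.20160309, deepTools, DESeq2, Bowtie2 2.2.9 and Picard, and the listed builds are dm6 and mm10, with no role stated. Not given in the sources used here are the peak threshold, the control, the libraries that entered a list, any pooling, and whether replicates came from separate cultures. Depth is therefore unknown.

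Gene positions came from 20665 autosomal protein-coding entries in RefSeq's GRCm38.p6 table, which has no strand or exons. Strand and starts came from RefSeq's promoter table, which held 16457 of these records. Starts of peaks were read as 0-based and are printed 1-based. Covered bases were summed per window (record with 5 kb on each side, or 2 kb on each side of a start) with Python 3.11.15, numpy 2.4.6 and pandas 2.3.3, and Spearman's rho with scipy 1.17.1. The sums were tested on simulated peaks, with the true length in 4000 of 4000 windows. For genes with several starts, the start with the most peak in the 3 lists together gave the CpG count. No test was run, since no list has replicates.

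All values are given for families of up to 5 members, and in larger families for the 4 most covered members and the 2 with the largest difference each way between NPC and MEF and between the MEF lines. Members in other sentences were named after their values were seen. Promoters were printed for the 2 most covered members over the 3 lists, in NPC alone and in both MEF lists alone, and for 2 with 0 bp, where the table held them. The members and lists were chosen with earlier results of these data known. Alternatives were other flanks, thresholds, overlaps and peak filters.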

Additional observations from a re-analysis of the deposited data

How the results depend on the processing

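Counts of members with a peak stayed within 1.5 times under 22 of 24 alternatives, those at starts under all 15, and 307 covered shares of single named genes did so and 62 did not. With each list cut to its widest peaks up to 136.9 Mb in all, line A kept a peak at 17 members (all records 16.2%) and line B at 18 (19.4%). Of these, 2 in each were covered over at least 50% (all records 5.71% in line A and 6.61% in B). Required coverage of 25% gave 11, 11 and 7 members (line A, line B, NPC), beside 17.7%, 16.2% and 8.62% of all records. Required coverage of 75% gave 2, 0 and 1, beside 4.51%, 4.66% and 1.7%. The median covered share with no flank was 0% (line A), 0.943% (line B) and 0% (NPC), 2.67% in line A and 0.498% in NPC with 10 kb, 0.431%, 1.31% and 0% with peaks of at least 1 kb, and 0% in both MEF lists with the cut lists. With the cut lists the patterns held 8 members in all 3 lists (all records 8.07%), 3 in both MEF lists alone (2.89%) and 9 in NPC and 1 MEF list (7.92%). They held 16 in NPC alone (15.9%), 1 in line A alone (1.82%), 3 in line B alone (3.92%) and 26 in none (59.5%). At starts, with the full lists, the first 4 patterns held 10, 6, 6 and 5 of 56, beside 8.56%, 9.19%, 3.97% and 4.98% of all records. There 15 members had a peak in none (63.7%). With peaks of at least 1 kb, 5 were in NPC alone (all records 5.64%) and 14 in none (51.2%). Cutting lists removes peaks by construction. No paired analysis was possible because the peak lists have no column per replicate. Unknown depth limits every absence of a peak.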
